A study of Mus musculus with 18 samples.

Results

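The glomerular basement membrane genes examined here were 6 type IV collagen chains (*Col4a1* to *Col4a6*), 3 laminin chains (*Lama5*, *Lamb2* and *Lamc1*) and the heparan sulfate proteoglycan *Agrn*. They were chosen by gene symbol, and each of the 10 genes had a single transcript cluster among the 28856 on the array. Signals came from 18 arrays of the type Affymetrix Mouse Gene 1.0 ST, with 3 arrays per genotype in each of 3 glomerular cell types, from *Cd2ap* mutant (CD2AP-/-, B6.129X1-*Cd2ap* tm1Shaw/J) and wild type mice, all 5 weeks of age. Cd2ap is an adaptor protein of the podocyte slit diaphragm, and its loss gives a mouse model of focal segmental glomerulosclerosis. Podocytes, mesangial cells and endothelial cells were sorted as GFP positive cells from dissociated glomeruli, with a GFP reporter transgene for each cell type (*Meis1-GFP* for mesangial and *Tie2-GFP* for endothelial cells), so each group is defined by the activity of 1 promoter. In the column names the mesangial controls carry a plus and a minus, unlike the other controls, which carry 2 plus signs. The genotype field of the sample records gives wild type for every control, the name used here, but the titles call those of podocytes and endothelial cells wild type and those of mesangial cells only control. Whether the mesangial controls were heterozygous is therefore not settled here. The series record calls the 3 arrays of a group biological triplicates, and each array's column carries a number of its own. The sample records do not say how many animals went into each array.

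The glomerular basement membrane lies between endothelial cells and podocytes and is built from networks of collagen IV and laminin, joined by nidogens and heparan sulfate proteoglycans. Collagen IV chains assemble into trimers, of which α1α1α2 is found in basement membranes at large and in the mesangial matrix, and α3α4α5 is the major collagen of the mature glomerular basement membrane. Mutations in the α3, α4 or α5 chain cause Alport syndrome. Its main laminin is the α5β2γ1 trimer, encoded by *Lama5*, *Lamb2* and *Lamc1*, and loss of the β2 chain causes Pierson syndrome.

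Several collagen IV genes lie head to head, and the promoter windows of 2 such pairs are shown here because both genes of 1 pair were measured above the signal minimum, while in the other pair 1 gene stayed below it. The windows run from 250 bases before to 50 bases after the annotated start (RefSeq, GRCm38.p6), and 8 of the 10 genes matched at least 1 window. Capitals mark the CCAAT box (CCAAT or ATTGG), the GC box (GGGCGG or CCGCCC) and the TATA box (TATAAA or TTTATA), searched on both strands.
Col4a1, chr8:11312777-11313076, minus strand: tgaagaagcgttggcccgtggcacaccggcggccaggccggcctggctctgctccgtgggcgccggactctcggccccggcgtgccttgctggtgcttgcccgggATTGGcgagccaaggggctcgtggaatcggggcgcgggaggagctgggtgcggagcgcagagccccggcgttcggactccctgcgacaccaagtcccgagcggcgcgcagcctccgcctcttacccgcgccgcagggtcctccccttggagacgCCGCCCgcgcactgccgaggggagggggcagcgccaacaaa
Col4a2, chr8:11312555-11312854, plus strand: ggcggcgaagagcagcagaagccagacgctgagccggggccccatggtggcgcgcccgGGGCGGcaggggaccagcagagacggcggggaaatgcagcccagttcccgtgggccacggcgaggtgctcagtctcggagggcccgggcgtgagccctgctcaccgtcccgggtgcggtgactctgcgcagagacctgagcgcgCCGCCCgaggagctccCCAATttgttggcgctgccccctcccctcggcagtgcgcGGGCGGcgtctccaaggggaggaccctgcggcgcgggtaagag
Col4a5, chrX:141475169-141475468, plus strand: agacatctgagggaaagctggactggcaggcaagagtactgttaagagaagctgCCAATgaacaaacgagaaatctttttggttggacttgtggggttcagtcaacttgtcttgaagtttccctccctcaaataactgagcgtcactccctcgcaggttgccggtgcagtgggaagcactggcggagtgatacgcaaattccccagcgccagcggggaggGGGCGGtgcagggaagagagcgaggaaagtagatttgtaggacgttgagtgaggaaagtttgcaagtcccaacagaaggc
Col4a6, chrX:141474027-141474326, minus strand: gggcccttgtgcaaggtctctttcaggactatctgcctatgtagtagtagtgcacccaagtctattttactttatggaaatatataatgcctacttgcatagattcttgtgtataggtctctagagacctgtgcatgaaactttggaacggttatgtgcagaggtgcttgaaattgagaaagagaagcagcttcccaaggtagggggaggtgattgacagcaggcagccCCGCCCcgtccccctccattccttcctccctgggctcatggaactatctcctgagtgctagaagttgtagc
The starts of *Col4a1* and *Col4a2* lay 21 bases apart, and their windows shared 78 bases. Those of *Col4a5* and *Col4a6* lay 1343 bases apart, with no shared base. The *Col4a1* and *Col4a2* windows were 74.0% and 73.7% G and C, against a median of 52.7% over 32851 windows of the same length, and each held 1 CCAAT box. The *Col4a2* window held 3 GC boxes and the *Col4a1* window 1. The *Col4a5* window held 1 CCAAT box and 1 GC box, and the *Col4a6* window 1 GC box and no CCAAT box. The TATA letters were in none of the 4 windows. Over all windows, 37.4% held a CCAAT box, 35.7% a GC box and 13.6% a TATA box. A match describes the letters and is not a binding site.

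Array medians lay between 62.8 and 71.6, and between 9697 and 10097 transcript clusters per array reached a signal of 100, the minimum of the study's screen. Each sort carried its own markers. *Nphs1*, which encodes the slit diaphragm protein nephrin, gave 1034 to 1298 on the 6 podocyte arrays, and the mean of each of 4 podocyte markers (*Nphs1*, *Podxl*, *Synpo* and *Wt1*) reached 100 there. The summed signal of 6 endothelial markers was 13252 to 15505 on the endothelial arrays, and that of 6 mesangial markers 4638 to 7690 on the mesangial arrays. Wild type mesangial array C stood apart, with *Nphs1* at 168 against 58.2 and 55.6 on the other 2 wild type arrays, a summed signal of the 4 podocyte markers of 1451 against 601 and 783 (mostly through *Podxl*, at 725 against 79.4 and 82.4, which gave 937 to 1250.0 on endothelial arrays, while *Wt1* was not higher than on array B), and an endothelial marker sum of 6989 against 2119 and 2553. The tubule marker sum of that array was 817 against 382 and 361, and its leukocyte sum 470 against 228 and 203. Podocyte arrays differed by genotype in markers of other cell types, while the sum of their 4 podocyte markers overlapped (5965 to 6723 in wild type and 5577 to 6992 in mutant arrays). Their endothelial marker sum was 3953 to 5215 in wild type and 573 to 2324 in mutant arrays, the mesangial sum 3413 to 4017 and 1750 to 2836, the smooth muscle and juxtaglomerular sum 704 to 734 and 957 to 2903, and the parietal epithelial sum 305 to 329 and 497 to 732. The lowest endothelial and mesangial sums were those of mutant podocyte array C. Mesangial arrays also differed by genotype without overlap, with a mesangial sum of 6771 to 7690 in wild type and 4638 to 5206 in mutant arrays, a smooth muscle and juxtaglomerular sum of 1220.4 to 1515 and 1516 to 2784, and a parietal epithelial sum of 214 to 240.5 and 317 to 435. The smooth muscle and juxtaglomerular sums nearly touched. In that list only *Acta2* did not overlap (539 to 680 in wild type and 811 to 1689 in mutant arrays), while *Myh11*, *Tagln* and *Ren1* did. Of the parietal epithelial list only *Cldn1* did not overlap (92.7 to 117 and 188 to 314), with *Pax2* and *Pax8* below 100. Within the mesangial list *Meis1*, the gene of the sort reporter, went the other way without overlap, at 189 to 224 in wild type and 231 to 321 in mutant arrays. The part of these marker differences in the mesangial genotype differences given below was not tested. *Cd2ap* itself was not shown to fall in arrays labelled mutant, with log2 differences of -0.23 (adjusted p = 0.504) in podocytes, -0.31 (adjusted p = 0.151) in mesangial cells and 0.18 (adjusted p = 0.336) in endothelial cells. Its signal was 1546 to 2108 on wild type and 1478 to 1512 on mutant podocyte arrays, and 922 to 1123 and 797 to 870.4 on mesangial ones, without overlap, with unadjusted p of 0.154 and 0.0189 by limma. On endothelial arrays it was 757 to 859 in wild type and 891 to 966 in those labelled mutant, also without overlap and in the other direction, so each genotype direction below rests on the labels. Where in the gene the deleted part lies relative to the probes is not known here. The male marker *Ddx3y* was high on 1 wild type and 1 mutant podocyte array, on wild type mesangial arrays B and C but no mutant one, and on endothelial arrays A and B labelled mutant but no wild type one.

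**Figure D1:**
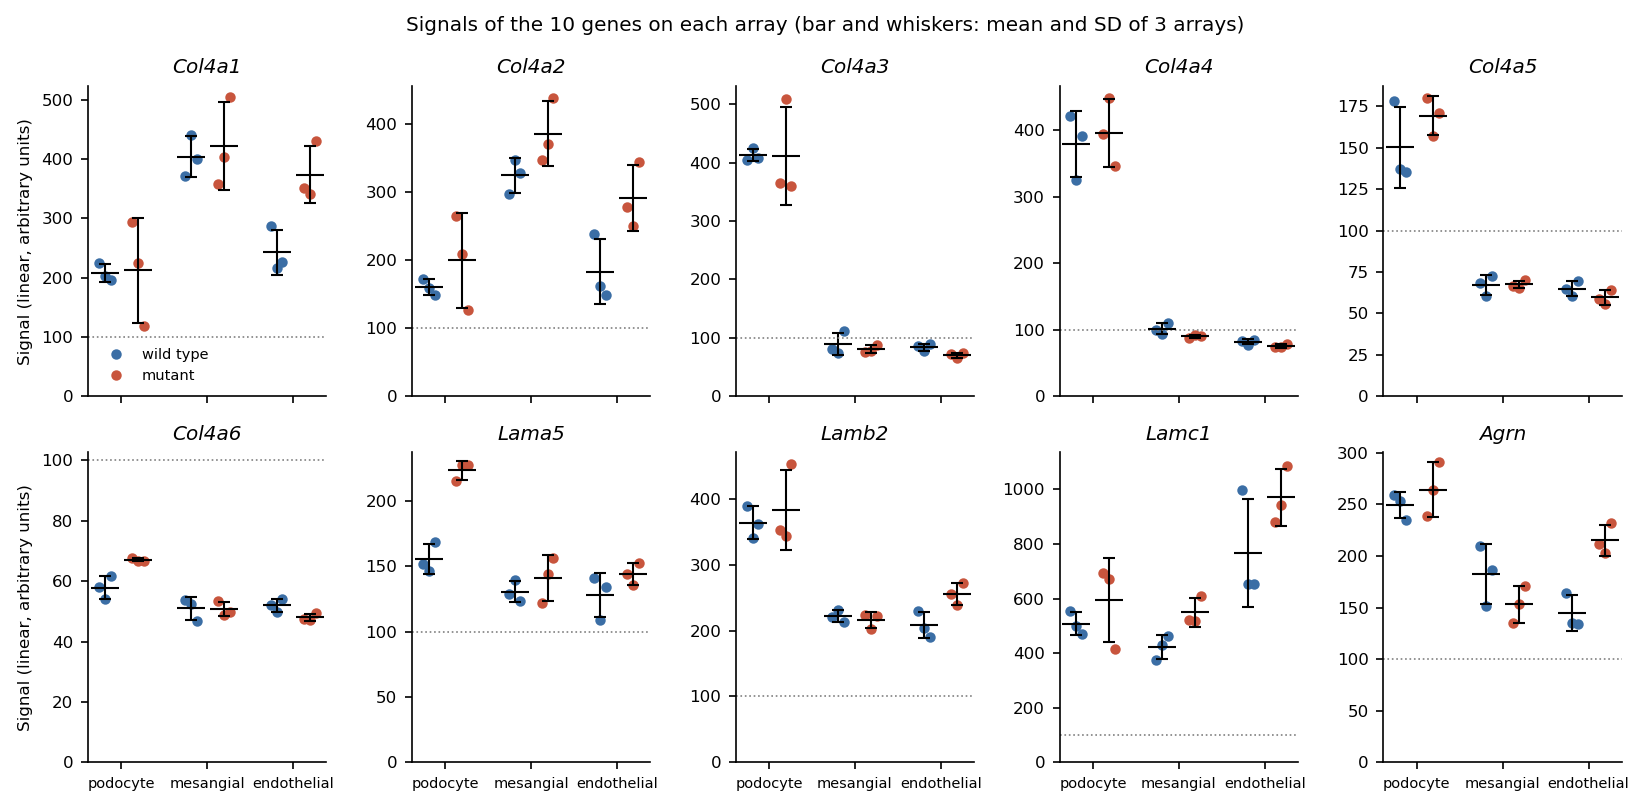
Linear RMA signal (vertical axis, arbitrary units, from 0, with its own scale in each panel) of the 10 genes on each of the 18 arrays, by sorted cell type and genotype. Points are arrays, the bar and whiskers are the mean and SD of 3 arrays, and the dotted line is the signal of 100. *Col4a3*, *Col4a4* and *Col4a5* were high in podocytes alone, and in wild type arrays *Col4a1* and *Col4a2* were highest in mesangial cells.

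*Col4a1* and *Col4a2*, which encode the chains of the α1α1α2 trimer, were highest in mesangial cells among wild type arrays and, in endothelial cells, higher on arrays labelled mutant than on wild type ones. The *Col4a1* signal (transcript cluster 10576973) was 372, 441 and 400 on wild type mesangial arrays, 225, 203 and 196 on wild type podocyte arrays, and 286, 216 and 226 on wild type endothelial arrays. Mesangial arrays did not overlap with either other cell type, and podocyte and endothelial arrays did. In wild type cells *Col4a1* was lower in podocytes than in mesangial cells by a log2 difference of -0.96 ± 0.24 (SE, adjusted p = 0.00808), and higher in mesangial than in endothelial cells by 0.74 ± 0.24 (SE, adjusted p = 0.0297). The wild type podocyte and endothelial signals differed by -0.21 ± 0.24 (SE, adjusted p = 0.545), within the spread between arrays.

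*Col4a2* (transcript cluster 10570068) gave 298, 348 and 328 on wild type mesangial arrays, 172, 160 and 149 on podocyte arrays and 238, 162 and 149 on endothelial arrays. Again the mesangial arrays lay above all others. The wild type log2 difference was -1.02 ± 0.22 (SE, adjusted p = 0.00318) for podocytes minus mesangial cells, and 0.86 ± 0.22 (SE, adjusted p = 0.00890) for mesangial minus endothelial cells. The mesangial against endothelial difference of *Col4a1* lost its adjusted p when wild type mesangial array B or C, or wild type endothelial array B or C, was left out (adjusted p 0.0610 to 0.0995), with no signal minimum (0.0572) or after quantile normalization (0.0539), and that of *Col4a2* without wild type endothelial array C (adjusted p = 0.0510).

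In endothelial cells *Col4a1* gave 351, 340.3 and 429.8 on arrays labelled mutant, all above the wild type range of 216 to 286. *Col4a2* gave 278, 250.3 and 344 on those arrays, against 149 to 238 in wild type. In both genes array C was the highest of the arrays labelled mutant, and the genotypes did not overlap. The fold change was 1.54 for *Col4a1* (log2 difference 0.63 ± 0.14 SE, unadjusted p = 0.00229, adjusted p = 0.0855) and 1.61 for *Col4a2* (0.69 ± 0.19 SE, unadjusted p = 0.00776, adjusted p = 0.142), both from limma. Both passed the study's screen, which asks for over 1.5-fold and an unadjusted p under 0.05, and neither passed adjustment over all transcript clusters. The fold change went under 1.5 for both genes without wild type array C (log2 differences 0.58 and 0.55) or without mutant array C (0.52 and 0.56), and for *Col4a1* also without wild type array B (0.55). With *Ddx3y* as a covariate in the fit of 18 arrays, *Col4a1* no longer passed the screen (0.59, adjusted p = 0.558), while *Col4a2* passed the screen and not adjustment (0.68, adjusted p = 0.406). The mesangial marker sum was 400 to 469 on endothelial arrays labelled mutant and 449 to 476 on wild type ones, with *Pdgfrb*, *Itga8*, *Gata3*, *Des* and *Ptprd* below 100 in both. The parts of mesangial RNA and of the animals' sex in these differences were not tested further.

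In mesangial cells *Col4a1* gave 359, 403 and 504 and *Col4a2* 348, 371 and 439 on mutant arrays. The *Col4a1* arrays overlapped with wild type, and *Col4a2* touched the wild type range only through mutant array A. The differences were 0.05 ± 0.14 and 0.25 ± 0.12 (SE) on the log2 scale, with adjusted p of 0.865 and 0.280. Among mutant arrays, mesangial minus endothelial differences were 0.17 ± 0.24 for *Col4a1*, with overlap, and 0.41 ± 0.22 for *Col4a2*, without (SE, adjusted p 0.653 and 0.188), so the order of these 2 cell types was not shown there. Mutant podocyte arrays spread more widely than any other group in these 2 genes. *Col4a1* was 294, 225 and 118, and *Col4a2* 265, 209 and 126, on mutant podocyte arrays A, B and C. Array A was the highest and array C the lowest of the 3 in both genes and also in several marker sums. The sums on A, B and C were 2324, 980.4 and 573 for endothelial markers, 2836, 2578 and 1750 for mesangial markers, and 2903, 2283 and 957 for smooth muscle and juxtaglomerular markers. They were 732, 643 and 497 for parietal epithelial and 437, 294 and 285 for leukocyte markers. The podocyte sums (5577, 6226 and 6992) and the tubule sums (453, 456 and 464) ran the other way. The part that RNA of other cells has in these signals was not tested. The wild type podocyte arrays had higher mesangial sums and *Col4a1* signals within the mutant range. One of the mesangial markers, *Ptprd*, was higher on podocyte than on mesangial arrays. In sorted bulk samples fewer cells of a type and less RNA per cell cannot be told apart. The podocyte genotype differences were -0.07 ± 0.31 for *Col4a1* and 0.26 ± 0.26 for *Col4a2* (SE, adjusted p 0.938 and 0.680).

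**Figure D2:**
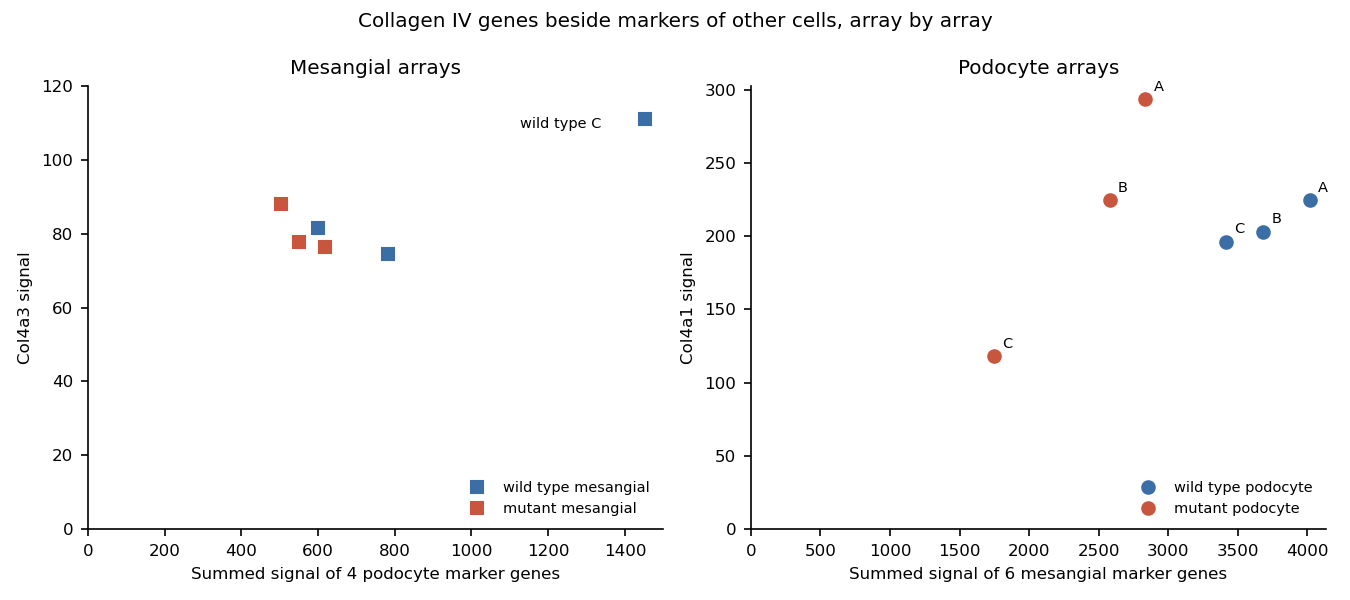
Left, *Col4a3* signal (vertical axis) against the summed signal of 4 podocyte markers on the 6 mesangial arrays, and right, *Col4a1* signal against the summed signal of 6 mesangial markers on the 6 podocyte arrays, all axes linear from 0. Each point is 1 array and letters name the podocyte arrays. Wild type mesangial array C had the highest podocyte sum (1451) and the highest *Col4a3* (111), while array B had a higher sum than array A (783 and 601) and a lower *Col4a3* (74.6 and 81.7), and mutant podocyte array C the lowest mesangial sum (1750) and the lowest *Col4a1* (118).

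The α3, α4 and α5 chain genes gave their highest signals on podocyte arrays in both genotypes, and none was shown to change with genotype. *Col4a3* (transcript cluster 10347807) gave 405, 425 and 408 on wild type podocyte arrays and 366, 509 and 359.6 on mutant ones. Every other array was at 111 or lower. Wild type podocytes exceeded mesangial cells 4.70-fold (log2 difference 2.23 ± 0.15 SE, adjusted p = 4.34e-08) and endothelial cells 4.94-fold (2.30 ± 0.15 SE). Among podocyte and endothelial arrays *Col4a3* reached 100 only on the podocyte ones, where it is high. No test against endothelial cells is therefore read from it. In mutant cells the folds were 5.04 and 5.79. Signals under 100 are near the floor of the array, so these folds may understate the difference. The single mesangial signal of *Col4a3* over 100 was that of wild type array C, at 111, the array with the highest *Nphs1*, against 81.7 on array A and 74.6 on array B. Outside podocytes *Col4a3* thus reached the signal minimum on that array alone, which also limits the test against mesangial cells.

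*Col4a4* (transcript cluster 10356088) shares its promoter region with *Col4a3*. It gave 422, 324 and 392 on wild type podocyte arrays and 394, 448 and 346.5 on mutant ones, against 73.5 to 111 on the 12 other arrays. The highest of these was again wild type mesangial array C. Podocytes exceeded mesangial cells by 1.90 ± 0.11 (SE, adjusted p = 1.78e-08) on the log2 scale and endothelial cells by 2.21 ± 0.11 (SE) in wild type. Outside podocytes *Col4a4* reached 100 only on wild type mesangial arrays A and C (100.3 and 111). No test against endothelial cells is therefore read from it.

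*Col4a5*, on the X chromosome (transcript cluster 10602105), gave 178, 137 and 135 on wild type podocyte arrays and 180.1, 157 and 171 on mutant ones. All other arrays lay between 55.5 and 72.5, so podocyte arrays stood clear of both other cell types. The log2 difference in wild type was 1.16 ± 0.11 (SE) over mesangial cells and 1.20 ± 0.11 (SE) over endothelial cells. In mutant cells it was 1.33 and 1.51. *Col4a5* reached the signal minimum of 100 only through the podocyte arrays, where it is high, so it had to differ to be tested. No test between cell types is therefore read from it, and these sizes are taken against signals near the floor. The podocyte genotype differences of *Col4a3*, *Col4a4* and *Col4a5* were -0.02 ± 0.16, 0.06 ± 0.16 and 0.18 ± 0.15 (SE) on the log2 scale, with adjusted p of 0.959, 0.885 and 0.604. Genotypes overlapped in all 3.

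*Col4a6*, the neighbour of *Col4a5* (transcript cluster 10607012), pairs with α5 in basement membranes such as that of Bowman's capsule. It stayed below 100 on all 18 arrays and was not tested. Its signals were 57.9, 54.0 and 61.7 on wild type podocyte arrays and 67.8, 66.8 and 66.7 on mutant ones. These did not overlap, and the mesangial and endothelial arrays lay between 46.6 and 54.1. Markers of parietal epithelial cells, which line Bowman's capsule, were higher on the same mutant podocyte arrays, with *Cldn1* at 298 to 503 against 138 to 171 in wild type. Their part in the *Col4a6* signal was not tested. Beside the promoter windows above, the overlapping pair *Col4a1* and *Col4a2* were both above 100 on all 18 arrays, while of *Col4a5* and *Col4a6* only *Col4a5* passed 100. *Col4a6* was also higher on podocyte than on most other arrays, but at signals near the floor.

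**Figure D3:**
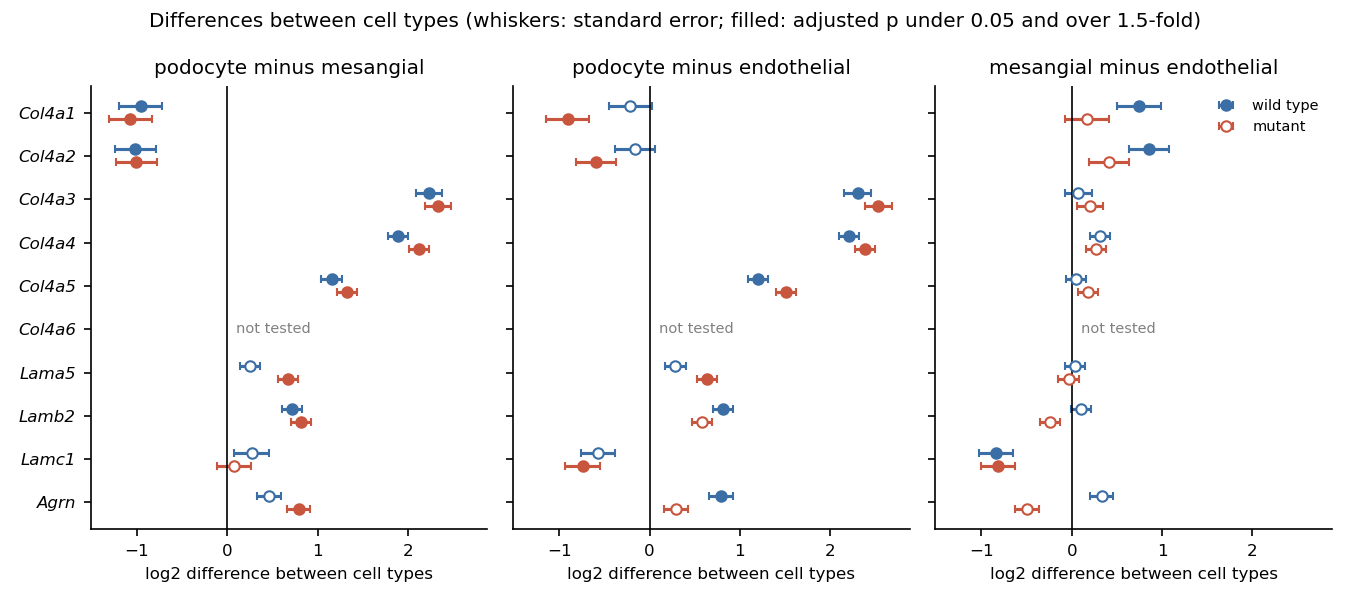
Log2 differences between sorted cell types (horizontal axis) for the members, in wild type and mutant arrays, from 1 limma fit over 18 arrays; whiskers are standard errors and filled points are over 1.5-fold with an adjusted p under 0.05. *Col4a3*, *Col4a4* and *Col4a5* sit at 1.16 to 2.53 in both podocyte panels, and *Col4a1* and *Col4a2* near -1 for podocytes minus mesangial cells.

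Of the laminin α5β2γ1 chains, *Lamb2* was highest in podocytes and *Lamc1* in endothelial cells, and *Lama5* was higher on mutant than on wild type podocyte arrays. *Lama5* (transcript cluster 10490384) gave 152, 146 and 169 on wild type podocyte arrays. On mutant podocyte arrays it gave 215, 228 and 228. The genotypes did not overlap, and the mutant arrays lay close together. The fold change was 1.44 (log2 difference 0.52 ± 0.12 SE, unadjusted p = 0.00262, adjusted p = 0.157 from limma), short of the 1.5 of the screen. It was at least 0.48 on the log2 scale without any 1 array. Over 10 other settings it was 0.41 to 0.62, the highest after quantile normalization, which put it past the screen. The smooth muscle and juxtaglomerular sum and the parietal epithelial sum were higher, and the endothelial and mesangial sums lower, on the same mutant podocyte arrays. On array C the first of these was higher through the juxtaglomerular gene *Ren1* (467 against 134 to 228 in wild type), with the smooth muscle genes *Acta2* (247) and *Myh11* (146) inside the wild type range and *Tagln* (96.9) below it. Their part in the *Lama5* difference was not tested. In mesangial cells *Lama5* gave 129, 140 and 123 in wild type and 122, 144 and 157 in mutant arrays, and in endothelial cells 141, 109 and 134 against 144, 135 and 152. Both pairs of groups overlapped, with differences of 0.10 ± 0.12 and 0.18 ± 0.12 (SE, adjusted p 0.647 and 0.450). Averaged over the 3 cell types *Lama5* rose by 0.27 ± 0.07 (SE, adjusted p = 0.0246), and it was the only member past that test. Without wild type podocyte array B or mutant endothelial array C the adjusted p was 0.0520 or 0.0535, and without both wild type mesangial array C and mutant podocyte array C it was 0.0504.

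*Lama5* passed the test between podocytes and the other cell types in mutant but not in wild type arrays. Wild type podocytes were above mesangial cells by 0.25 ± 0.11 (SE, adjusted p = 0.125) and above endothelial cells by 0.29 ± 0.11 (SE, adjusted p = 0.0625). Mutant podocytes were above them by 0.67 ± 0.11 (SE, adjusted p = 0.000249) and 0.64 ± 0.11 (SE, adjusted p = 0.000232). Both mutant differences went under 1.5-fold with array medians subtracted (0.58 and 0.51) or with a pseudocount of 50 (0.52 and 0.50). The difference between the podocyte and mesangial genotype effects was 0.42 ± 0.16 (SE, adjusted p = 0.282), and that between podocytes and endothelial cells 0.35 ± 0.16 (SE, adjusted p = 0.203), so the genotype effect was not shown to differ between cell types.

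*Lamb2* (transcript cluster 10588942), whose β2 chain replaces β1 as the glomerular basement membrane matures, gave 389, 340.0 and 362 on wild type podocyte arrays. It gave 213 to 232 on wild type mesangial and 190.4 to 229 on wild type endothelial arrays, with no overlap with podocytes. The wild type log2 difference was 0.71 ± 0.11 (SE, adjusted p = 0.000180) over mesangial and 0.81 ± 0.11 (SE, adjusted p = 3.25e-05) over endothelial cells. Mutant podocyte arrays gave 353, 343 and 453, overlapping with wild type. On endothelial arrays labelled mutant *Lamb2* was 255, 238 and 273, all above the wild type arrays, a log2 difference of 0.30 ± 0.10 (SE, unadjusted p = 0.0215, adjusted p = 0.200). The mutant podocyte against endothelial difference was 0.58 ± 0.11 (SE, adjusted p = 0.000462), a 1.49-fold difference just under the 1.5 required. It passed without mutant podocyte array A or B or mutant endothelial array C.

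*Lamc1* (transcript cluster 10358816), the γ1 chain of most laminins, gave 997, 654 and 655 on wild type endothelial arrays and 882, 943 and 1087 on those labelled mutant. The first wild type array lay among the mutant ones. Wild type mesangial arrays gave 375.4, 431 and 462, and wild type podocyte arrays 554, 501 and 471. Mesangial cells were below endothelial cells by -0.84 ± 0.19 (SE, adjusted p = 0.00321) in wild type and -0.82 ± 0.19 (SE, adjusted p = 0.00339) in mutant arrays. Mutant podocytes were below endothelial cells by -0.74 ± 0.19 (SE, adjusted p = 0.00389), and by -0.50 without mutant podocyte array C, which is under 1.5-fold. The wild type difference of -0.57 (adjusted p = 0.0287) was also under 1.5-fold, and passed it without wild type podocyte array A or wild type endothelial array B or C.

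On mutant mesangial arrays *Lamc1* was 522, 518 and 609.5, with no overlap with wild type. The fold change was 1.30 (log2 difference 0.38 ± 0.11 SE, unadjusted p = 0.0133, adjusted p = 0.132 from limma), under the 1.5 of the screen. In podocytes, mutant arrays A and B gave 692.5 and 671.5, above wild type, and array C gave 416, below it. The podocyte difference was 0.19 ± 0.21 (SE, adjusted p = 0.714), and the endothelial one 0.36 ± 0.18 (SE, adjusted p = 0.316).

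*Agrn*, the agrin core protein that ties laminin to cell surface receptors (transcript cluster 10519270), had a genotype effect that differed between endothelial and mesangial arrays. Endothelial arrays gave 164, 135 and 134 in wild type and 211, 203 and 232 in those labelled mutant, with no overlap. The fold change of 1.49 (log2 difference 0.58 ± 0.11 SE, unadjusted p = 0.000921, adjusted p = 0.0543 from limma) fell just short of the screen, and passed it without wild type array A or either of mutant arrays A and B. Mesangial arrays gave 209.8, 151 and 186 in wild type and 135, 154 and 171 in mutants, which overlapped, a difference of -0.25 ± 0.15 (SE, adjusted p = 0.384). The mesangial effect minus the endothelial effect was -0.83 ± 0.18 (SE, adjusted p = 0.0405). It was lost in 9 of the 12 fits that left out 1 array, namely all but wild type mesangial B, mutant mesangial C and wild type endothelial A, with adjusted p of 0.0170 to 0.117 over the 12. Over 7 other settings the adjusted p was 0.0168 to 0.148. Podocyte arrays gave 259, 253 and 235 in wild type and 239, 263 and 291 in mutants, with overlap. *Agrn* was higher in wild type podocytes than in endothelial cells by 0.79 ± 0.13 (SE, adjusted p = 0.000184). In mutant cells the podocyte against endothelial difference was 0.29 ± 0.13 (SE, adjusted p = 0.0662), while podocytes against mesangial cells gave 0.79 ± 0.13 (SE, adjusted p = 0.000201).

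**Figure D4:**
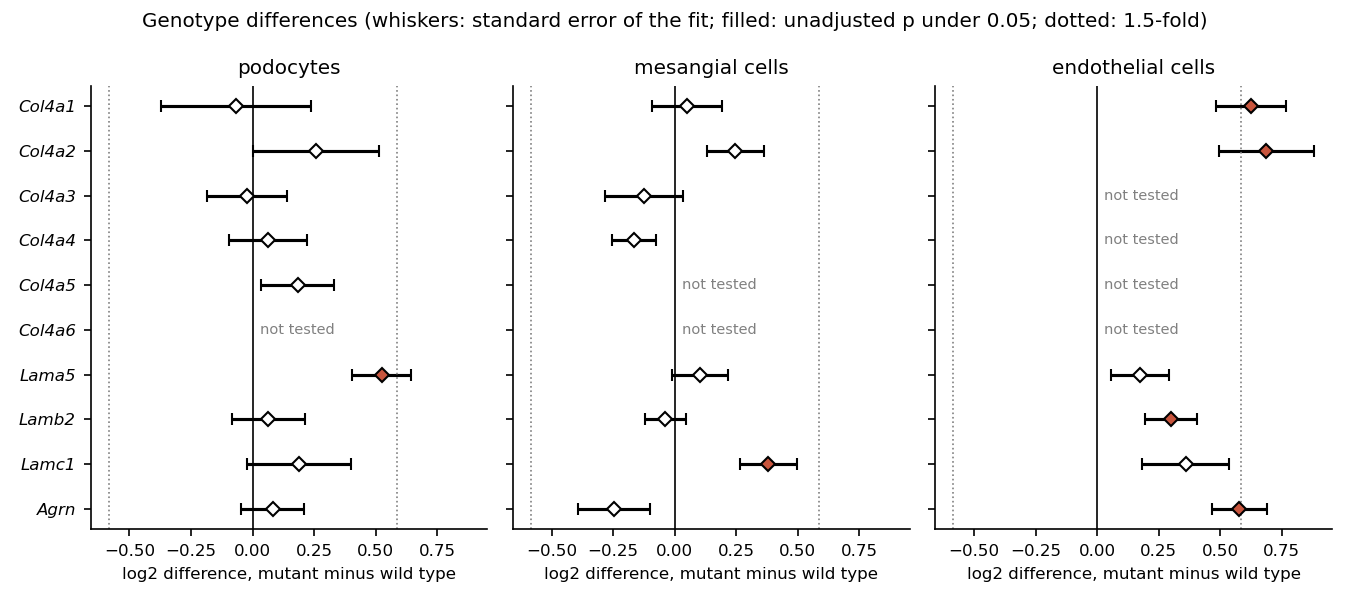
Log2 differences, mutant minus wild type (horizontal axis), of the members tested in each cell type (8 in mesangial cells, 9 in podocytes and 6 in endothelial cells) from limma on 6 arrays, the others being marked as not tested; whiskers are standard errors, filled points have an unadjusted p under 0.05 and dotted lines mark 1.5-fold. *Col4a1* and *Col4a2* lie past 1.5-fold in endothelial cells (0.63 and 0.69), *Agrn* just inside it (0.58), *Lama5* leads in podocytes (0.52) and *Lamc1* in mesangial cells (0.38).

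Counted over the members, 2 passed the genotype screen in endothelial arrays and none in the other cell types. In endothelial cells 6 members reached the signal minimum, all 6 had a difference above 0, and the 2 past the screen compare with 3.82% of all 11330 transcript clusters tested. The 4 others, *Col4a3* to *Col4a6*, were below 100 on every endothelial array. The median log2 difference of the 6 was 0.47, against 0.07 over all clusters. Genotypes did not overlap in 4 of the 6, against 25.1% of all clusters. In mesangial cells 8 members were tested and none passed the screen, which called 5.19% of clusters, and in podocytes none of 9, against 5.61%. By limma's unadjusted p under 0.05, 1 member passed in mesangial cells (*Lamc1*), against 21.7% of clusters, 1 in podocytes (*Lama5*), against 14.3%, and 4 in endothelial cells, against 18.5%. Genotypes did not overlap in 2 mesangial members, *Lamc1* and *Col4a4* (28.6% of clusters), and in 1 podocyte member (21.3% of clusters). *Col4a4* entered the mesangial test only through wild type arrays A and C, the genotype where it was higher, so its lack of overlap is not read as a result. No member passed adjustment in any cell type, a threshold passed by 2.92% of mesangial, 0.0578% of podocyte and 1.29% of endothelial clusters. Other settings of the same comparisons did pass members. With all 18 arrays in 1 fit, the adjusted p was 0.0148 for *Lama5* in podocytes and 0.0443 for *Agrn* in endothelial cells, and the podocyte clusters past adjustment went from 7 of 12113 to 777 of 13523. With array medians subtracted it was 0.0293 for *Agrn* and 0.0452 for *Col4a1* in endothelial cells, and without wild type endothelial array A *Agrn*, *Col4a1* and *Col4a2* all passed (0.0305 to 0.0411). Medians were 0.01 in mesangial cells and 0.08 in podocytes, against -0.02 and -0.04 over all clusters. *Col4a3* entered the mesangial test only through wild type array C.

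Between cell types, a call was over 1.5-fold with an adjusted p under 0.05, and 9 members were tested. The calls include *Col4a3* and *Col4a4*, which were below 100 on every endothelial and every mutant mesangial array. Their podocyte calls against those groups are therefore not read as results. Every podocyte count also includes *Col4a5*, which was tested only through its podocyte signals, so its call is not read as a result. In wild type, 6 differed between podocytes and mesangial cells (13.8% of 13523 clusters), 4 higher and 2 lower in podocytes. For podocytes against endothelial cells 5 were higher (20.0% of clusters), and for mesangial against endothelial cells 2 were higher and 1 lower (16.2%). In mutant arrays these counts were 8 (19.2%), 7 (29.9%) and 1 (18.0%). Without mutant podocyte array C the 7 became 4, since *Col4a1*, *Col4a2* and *Lamc1* fell under 1.5-fold at log2 differences of -0.53, -0.29 and -0.50. *Col4a2* also lost its call without mutant endothelial array A or C, with no signal minimum, or with a pseudocount of 50. It lost it too after quantile normalization (-0.38) and with only the 6 arrays compared (adjusted p = 0.114 by limma). *Lamc1* lost its call after quantile normalization. *Col4a1* lost its call with only the 6 arrays compared (adjusted p = 0.0506, and 0.0516 against mesangial cells), and *Lama5* against mesangial cells without mutant mesangial array A. As for differences of genotype effects, none of 9 passed for podocytes minus mesangial cells (0.717% of clusters) or podocytes minus endothelial cells (2.11%), with 1 and 2 at an unadjusted p under 0.05 (12.0% and 23.4% of clusters), and *Agrn* alone passed for mesangial minus endothelial cells (1.07%). Averaged over cell types 1 of 9 passed (5.86% of clusters), and 4 did without mutant podocyte array C, when *Col4a1*, *Col4a2* and *Lamc1* joined *Lama5*.

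Of 8 other laminin chains, 3 were tested in each genotype comparison and none passed the screen, 1 (*Lamb1* in mesangial cells, 0.28) having an unadjusted p under 0.05 by limma, against 5.19% of all mesangial clusters past the screen and 21.7% at that p. The median differences were 0.28 in mesangial cells, 0.06 in podocytes and 0.03 in endothelial cells. Among the 6 tested between wild type cell types, none was higher and 3 were lower in podocytes than in mesangial cells. Likewise 3 were lower than in endothelial cells, against calls in either direction for 13.8% and 20.0% of clusters. The mesangial count includes *Lama2*, which reached the signal minimum only on mutant mesangial array C and on no wild type array. The endothelial count includes *Lama3*, which reached it only on endothelial arrays, where it is high. Neither call is therefore read as a result, which leaves *Lama4* and *Lamb1* in both counts. *Lama4*, the α chain of vascular laminins, was lower in podocytes than in endothelial cells by -2.10 ± 0.18 (SE, adjusted p = 1.85e-07), with 288 to 414 on wild type endothelial and 72.4 to 87.6 on podocyte arrays, which is below the signal minimum. *Lamb1*, the β chain that *Lamb2* replaces, was lower in podocytes than in mesangial cells by -1.37 ± 0.22 (SE, adjusted p = 0.000282). The chains named here were chosen after their values were seen.

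Among 12 other basement membrane components, 1 passed the screen in each cell type. *Tinagl1*, a tubulointerstitial nephritis antigen-like matrix protein, was higher in endothelial arrays labelled mutant (0.67 ± 0.19 SE, adjusted p = 0.138). *Frem2* was lower in mutant mesangial cells (-0.65 ± 0.22 SE, adjusted p = 0.161). Its family member *Frem1* gave 134, 103 and 116 on mutant and 57.0 to 64.1 on wild type podocyte arrays, a log2 difference of 0.95 ± 0.14 (SE). *Frem1* reached the signal minimum only through the mutant arrays and had to be higher there to be tested, so no test is read from it. The counts were 1 of 9 tested in mesangial cells, 1 of 9 in podocytes and 1 of 8 in endothelial cells, against 5.19%, 5.61% and 3.82% of all clusters. At an unadjusted p under 0.05 by limma there were 4, 1 and 4, against 21.7%, 14.3% and 18.5%. In both counts the podocyte 1 is *Frem1*, so neither podocyte count is read as a result. Median log2 differences were -0.16, -0.02 and 0.23, against -0.02, -0.04 and 0.07 over all clusters.

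Of 16 genes for collagen IV modification, folding, export and crosslinking, 3 of 16 tested passed the screen in mesangial cells, 1 of 16 in podocytes and none of 12 in endothelial cells, against 5.19%, 5.61% and 3.82% of clusters. An unadjusted p under 0.05 by limma was reached by 6, 2 and 1 of them, against 21.7%, 14.3% and 18.5% of clusters. The median differences were 0.12, -0.04 and 0.07. *Loxl2*, a lysyl oxidase that crosslinks collagen IV, was higher in mutant mesangial cells (1.15 ± 0.25 SE, adjusted p = 0.0689), at 234, 350.5 and 426 against 127, 132 and 193. *Colgalt1*, whose transcript cluster also carries *Unc13a*, was higher there (0.62 ± 0.19 SE, adjusted p = 0.139), and the prolyl 3-hydroxylase *P3h2* lower (-0.61 ± 0.17 SE, adjusted p = 0.112). Wild type array C, with the highest *Nphs1* and *Podxl* of the wild type mesangial arrays but not the highest *Wt1*, had the highest wild type *P3h2* signal, 1325 against 867 and 925, and podocyte arrays had 3367 to 3772. The part of podocyte RNA in that difference was not tested. *P4ha1*, a prolyl 4-hydroxylase subunit, was lower in mutant podocytes (-0.73 ± 0.12 SE, adjusted p = 0.118). Averaged over cell types 1 of the 16 passed, against 5.86% of clusters: the lysyl hydroxylase *Plod2* rose by 0.30 ± 0.08 (SE, adjusted p = 0.0429).

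Of 11 basement membrane receptors, 2 of 9 tested passed the screen in mesangial cells, 2 of 10 in podocytes and 1 of 8 in endothelial cells, again against 5.19%, 5.61% and 3.82% of clusters, with medians of -0.07, -0.13 and 0.22. An unadjusted p under 0.05 by limma was reached by 2, 5 and 4 of them, against 21.7%, 14.3% and 18.5% of clusters. *Itga3*, the α chain of the laminin receptor α3β1, was lower in mutant mesangial cells at 143, 140.3 and 151 against 240, 236 and 212 (-0.66 ± 0.09 SE, adjusted p = 0.0179). *Bcam*, a receptor of the laminin α5 chain, was lower there too (-0.66 ± 0.16 SE, adjusted p = 0.0800). *Itga1*, the α chain of the collagen IV receptor α1β1, was higher in endothelial arrays labelled mutant, at 179, 177 and 216 against 64.6 to 93.2 (log2 difference 1.34 ± 0.15 SE). It was the 1 receptor past the screen there, and reached the signal minimum only through the arrays labelled mutant. No test is read from that comparison, and the difference is taken from a signal near the floor. Mesangial arrays gave *Itga1* signals of 793 to 1060.3, and the part of mesangial RNA in the endothelial difference was not tested. In mutant podocytes *Itga6* and *Itga2* were lower, by -1.25 ± 0.31 and -0.75 ± 0.25 (SE, adjusted p 0.177 and 0.259). *Itga6* gave 827 to 1265 on endothelial arrays, and the endothelial marker sum was lower on the same mutant podocyte arrays. The part of endothelial RNA in the *Itga6* difference was not tested.

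Across the 18 arrays and 11131 transcript clusters compared, the genes most like *Col4a1* in log2 signal were *Col4a2* (r = 0.954), *Nfix* (r = 0.949) and *Tinagl1* (r = 0.946). Those most like *Col4a3* were *Cdkn1c* (r = 0.992), *Col4a4* (r = 0.991) and *St6gal1* (r = 0.991). *Lama5* was most like *Pacsin2* (r = 0.923), *Tchh* (r = 0.906) and *Nell2* (r = 0.904), and *Agrn* most like *Dcaf12l1* (r = 0.892), *Sirt2* (r = 0.883) and *Lamb2* (r = 0.881). These are descriptions over arrays that share cell type, genotype and cell mixture.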

How the data were processed

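The authors deposited 18 linear intensity columns. Per the labels the values are from RMA, which corrects background and normalizes probes by quantiles, while the file header heads these columns as raw signals. The header names the Mouse Gene 1.0 ST array, and the series record an Exon 1.0 ST array and GeneBASE. The header was followed, and the study's methods name the same array as the header. A further 18 columns, named normalized, were not used here. Before hybridization RNA went through 1 round of Ribo-SPIA amplification. Arrays were assigned to groups by their column names and are called A, B and C in column order. Differences of log2 intensity were tested with limma 3.58.1 (lmFit, eBayes, R 4.3.3). Genotype fits used 6 arrays, and cell type, interaction and average contrasts 18. A signal of at least 100 on at least 1 array of the fit was required. The adjustment was Benjamini-Hochberg over all transcript clusters tested. With 3 arrays per group, their number limits the precision. Alternatives covered the signal minimum, scaling, pseudocount, variance prior, arrays in the fit, call rule and *Ddx3y* as covariate. The text names all members, and pathway genes that passed a genotype test. Other laminin chains are named for their cell type differences, after their values were seen. Members and lists were chosen with earlier results of these data known. Authors' comparisons and RNA-seq were not used here. Some podocyte markers are not reported here and were left out of the marker sums.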

Additional observations from a re-analysis of the deposited data

Results flagged for a closer look

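The genotype effect of *Agrn* differed between mesangial and endothelial cells by a limma interaction, at -0.83 on the log2 scale, with mesangial differences of -0.25 and endothelial ones of 0.58. Among receptors, *Itga3* differed in the same pair by -1.04 (adjusted p = 0.0363), and *Itga1* differed between podocytes and endothelial cells by -2.25 (adjusted p = 0.0237). The part of the animals' sex in the mesangial minus endothelial differences was not tested. For the collagen receptor *Ddr1* the podocyte effect minus the endothelial effect was 0.52. For *Frem1* the podocyte effect minus the mesangial effect was 1.03, and minus the endothelial effect 1.18. *Frem1* was above 100 on the mutant podocyte arrays and below it on every other array, so it entered the fit only through the group where it is high, and no test is read from it. *Ddr1* reached 100 only on podocyte arrays, where it is high, so no test is read from it either. *Itga1* was below 100 on wild type endothelial arrays and *Ddr1* on every endothelial array, so their sizes are measured against signals near the floor. *Itga1* gave 336, 194 and 198 on wild type and 196, 148 and 66.3 on mutant podocyte arrays and 793 to 1060.3 on mesangial arrays, and the mesangial marker sum on podocyte arrays was 3413 to 4017 in wild type and 1750 to 2836 in mutants. The part of mesangial RNA in its difference was not tested. No group holds enough arrays for a test of single arrays that stand apart.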

How the results depend on the processing

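Among the 55 member differences that were called or had an unadjusted p under 0.05, 835 values under alternatives held no change of sign, 54 lost a call and 21 gained one. Among 58 other differences, for which no direction is claimed, 60 of 1013 values changed sign. In endothelial cells the 2 members past the screen became 0 after quantile normalization, with a pseudocount of 50 or by adjusted p, and 0 to 3 without 1 array. The *Agrn* count of 1 for mesangial minus endothelial effects became 0 with no signal minimum, after quantile normalization, and without both arrays that stand apart (chosen after seeing the data), and was 0 to 1 without 1 array. The podocyte screen gained 1 member after quantile normalization. The count averaged over cell types was 2 after quantile normalization and 2 without both arrays, and 0 to 4 without 1 array. Mutant podocytes against endothelial cells gave 4 members without both arrays and 4 to 8 without 1 array, wild type mesangial against endothelial cells 1 to 3, and podocyte minus endothelial effects 0 to 1. Each member had a single transcript cluster, so no other cluster could be tried. No paired analysis was possible because the labels give each array its own number. Signals under 100 limit what can be said of *Col4a6*, of *Col4a3* to *Col4a5* outside podocytes, and of *Frem1*, *Itga1*, *Ddr1*, *Lama2*, *Lama3* and *Lama4* in their low groups.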
